A study of Mus musculus with 12 samples.

Results

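The genes described here are 10 immediate early genes of the mouse, chosen by symbol: Egr1, Egr2 and Egr3, Klf2, Klf4 and Klf6, Nr4a1, Nr4a2 and Nr4a3, and Ier3. They are 10 of the 18771 genes in the deposited expression table. The study asked what Pfas does in fibroblasts of the infarcted heart. The Pfas protein, phosphoribosylformylglycinamidine synthase, works in the pathway that builds purines from small precursors. Fibroblasts were taken from the left ventricle 3 days after myocardial infarction (MI), in which a main coronary artery, the left anterior descending one, stayed tied off. The 6 Pfas CKO libraries had the genotype PDGFRa CreER/+;Pfas fl/fl, and the 6 control libraries had the genotype PDGFRa CreER/+;Pfas fl/+. Both groups therefore carry a tamoxifen-inducible Cre at the Pdgfra gene, which is active in fibroblasts and other mesenchymal cells, and the controls carry a single floxed Pfas allele. Tamoxifen is stated for the Pfas CKO mice at 7 and 3 days before MI and 1 day after it, whereas the sources used here do not give the controls' treatment, the age and sex of the mice or the number of mice per library.

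Immediate early genes are switched on within minutes of a stimulus without new protein synthesis, because the factors that act on their promoters, among them SRF with its ETS partners, CREB and NF-kB, are already present in the resting cell. Most of the genes described here encode transcription factors: EGR proteins bind GC-rich sites through zinc fingers, KLF proteins bind GC-rich and CACCC sites through related fingers, and NR4A proteins are orphan nuclear receptors that act without a known hormone. Their transcripts are short-lived, and in heart tissue they respond to injury, stretch, cytokines and also to the enzymes and warmth used to release cells.

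Total estimated counts per library ran between 20320133 and 20520386 in Pfas CKO and between 20560953 and 20950074 in control. Pfas itself averaged 11.2 ± 3.78 counts scaled to library size (CPM) in Pfas CKO and 23.3 ± 0.861 CPM in control (SD, n = 6 each). Pfas was highest in Pfas CKO 2, with 17.4 CPM, and Pfas CKO 4, with 14.5 CPM, and all 6 Pfas CKO libraries were below every control. The libraries fell into sets that resembled each other closely: control 1 to 3, control 4 to 6, and Pfas CKO 1, 3, 5 and 6, with Pfas CKO 2 and 4 apart. Within a set, the chi-square per gene was 1.68 to 5.21, against 17.55 to 39.87 across sets of one group and 168.88 to 253.25 between Pfas CKO and control libraries. Every pair differed by more than counting error, which gives a value near 1, so each library was counted once, but separate mice behind each are not stated, and the p-values below measure the spread between libraries, which may be technical. Summed fibroblast markers reached 14130 to 17008 CPM in Pfas CKO and 17754 to 20779 CPM in control. All 10 fibroblast markers were tested, and 6 rose and 4 fell, where 33.4% of all genes rose and 35.2% fell. Macrophage markers were also abundant, with sums of 7316 to 9117 CPM in Pfas CKO and of 6440 to 7096 CPM in control. In these bulk samples, fewer cells of a type and less RNA per cell cannot be told apart.

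Of the 10 immediate early genes, 7 rose in the Pfas CKO libraries (Egr1, Egr3, Klf6, Nr4a1, Nr4a2, Nr4a3 and Ier3), 1 fell (Egr2), and Klf2 and Klf4 did not pass the test. The test was the edgeR quasi-likelihood test, with p-values adjusted by Benjamini-Hochberg over all 13600 genes and called under 0.05. By the same test 68.6% of all genes changed, 33.4% rising and 35.2% falling, so that a call alone sets a gene little apart here. Rises of at least 2-fold were less common, at 6.88% of genes, and 5 of the 10 were among them: Egr3, Nr4a1, Nr4a2, Nr4a3 and Ier3. The 10 were chosen with earlier results of these data known, so these shares describe the genes and do not test them as a set. The CPM ranges of the groups did not overlap for 7 genes, with Egr1, Egr3, the 3 Nr4a genes and Ier3 above control and Egr2 below it. Such separation was seen upwards in 23.2% of all genes and downwards in 23.9%. Ordered from the highest log2 fold change down, Ier3 was gene 105 and Nr4a3 was gene 117 of 13600, whereas Egr2 was gene 12074.

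**Figure D1:**
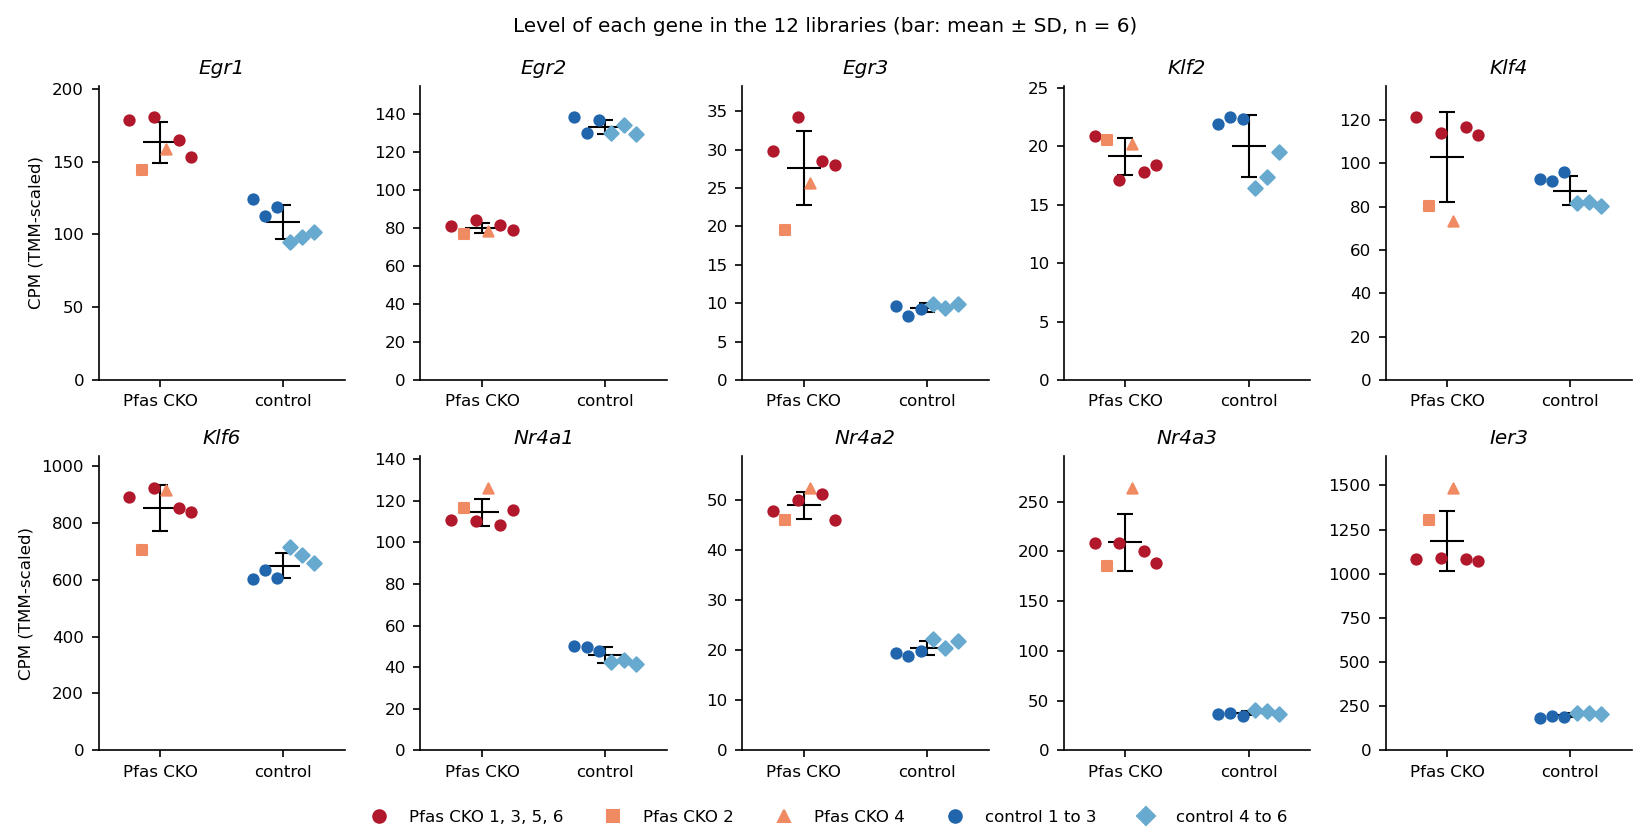
CPM of each of the 10 genes on linear axes that start at 0, with Pfas CKO left and control right in each panel, 1 point per library (coloured by set) and bars at the mean ± SD (n = 6). The groups are apart in 7 panels, and Klf2, Klf4 and Klf6 overlap.

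Per length, Ier3 was the highest of the 10 in both groups, at 2207 ± 299.7 TPM (transcripts, scaled by gene length and library size) in Pfas CKO and 454 ± 15.8 TPM in control (SD, n = 6 each). Klf6 came next, at 398 ± 42.9 TPM in Pfas CKO and 369 ± 17.8 TPM in control. In Pfas CKO the order went on through Egr1 (105 TPM), Nr4a1 (91.1 TPM), Nr4a3 (75.0 TPM), Klf4 (66.9 TPM), Egr2 (54.3 TPM), Nr4a2 (29.5 TPM), Klf2 (21.04 TPM) and Egr3 (13.8 TPM). From Egr1 down to Egr2, each neighbouring pair had overlapping ranges in Pfas CKO. In control the order after Klf6 was Egr2 (108 TPM), Egr1 (85.3 TPM), Klf4 (69.2 TPM), Nr4a1 (44.6 TPM), Klf2 (26.9 TPM), Nr4a3 (16.5 TPM), Nr4a2 (15.2 TPM) and Egr3 (5.74 TPM). There, the ranges overlapped between Egr1 and Klf4 and between Nr4a3 and Nr4a2. Egr2 thus stood above all members but Ier3 and Klf6 in control and below 6 of them in Pfas CKO. TPM are scaled to each library's total, and on log2(TPM + 1) values the median log2 fold change of all genes shifted by -0.25 from that of the test.

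The EGR genes moved apart: Egr1 and Egr3 rose and Egr2 fell. Egr1 is the founding EGR factor, induced through SRF and ETS factors by growth factors, injury and shear stress. It held 145, 162 and 180.5 CPM (lowest, median, highest) in Pfas CKO and 95.05, 107 and 125 CPM in control. All Pfas CKO libraries lay above all controls in CPM, although in TPM the lowest of them, 90.28 in Pfas CKO 2, lay below 2 of the controls. Its log2 fold change was 0.59 ± 0.0761 (SE, adjusted p = 5.69e-06, edgeR). Scaled to library totals alone, it was 0.35 (adjusted p = 0.000847, edgeR). Among the controls, control 4 to 6 were lower than control 1 to 3, with means of 98.4 and 119 CPM, and the log2 fold change was 0.73 against control 4 to 6 alone and 0.46 against control 1 to 3 alone.

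Egr2, also called Krox20, drives Schwann cell myelination and is raised in alternatively activated mouse macrophages. Its CPM were 77.0, 80.0 and 84.2 in Pfas CKO and 129, 132 and 138 in control, with all 6 Pfas CKO libraries below all 6 controls and a spread within each group of a few percent. Its log2 fold change was -0.73 ± 0.0414 (SE, adjusted p = 5.01e-10, edgeR), a level 1.66-fold lower in Pfas CKO. The 2 control sets differed little, at 131 CPM in control 4 to 6 and 135 CPM in control 1 to 3. Egr2 gave -0.72 against control 4 to 6 alone and -0.75 against control 1 to 3 alone.

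Egr3, a close relative that acts in muscle spindles and lymphocytes, was the least abundant of the 10 per length. It held 19.6, 28.2 and 34.2 CPM in Pfas CKO and 8.38, 9.50 and 9.92 CPM in control. Every Pfas CKO library was above every control, with Pfas CKO 2 the lowest of its group. This was a log2 fold change of 1.55 ± 0.107 (SE, adjusted p = 5.28e-09, edgeR), or 2.93-fold higher. Its smallest estimated count in any library was 189.

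Because these shifts ran in opposite directions, the summed EGR level changed less than its makeup. The sum of the 3 was 173 ± 15.5 TPM in Pfas CKO and 199 ± 16.7 TPM in control (SD, n = 6 each). Egr1 made up 60.6 ± 0.980% of it in Pfas CKO and 42.7 ± 2.33% in control. Egr2 made up 31.5 ± 1.52% in Pfas CKO and 54.4 ± 2.07% in control, so the most abundant EGR transcript per length was Egr1 in Pfas CKO and Egr2 in control. Egr3 made up 7.91 ± 0.914% in Pfas CKO and 2.89 ± 0.300% in control. The log2 ratio of Egr2 to Egr1 TPM, which no scaling of a library can change, was -0.95 ± 0.0894 in Pfas CKO and 0.35 ± 0.134 in control, a difference of -1.30. The log2 ratio of Egr3 to Egr2 differed by 2.24, with -1.999 ± 0.234 in Pfas CKO and -4.24 ± 0.106 in control. Each of the 3 EGR ratios gave p = 0.00216 in the two-sided exact permutation test, the smallest that 6 against 6 libraries allow. After Benjamini-Hochberg adjustment over the 9 pairs tested in all families, each gave 0.0039 in that test. In every family this test takes each library as a separate unit, although the libraries within a set are near-identical.

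The promoter of Egr2 is shown because it was the 1 gene of the 10 that fell, and because sites of SRF and CREB can be read in it. The window holds the 250 bases before a RefSeq start on GRCm38.p6, chr10:67537619-67537868, plus strand. Of 5 RefSeq starts listed for Egr2, the one nearest that of the longest coding transcript in GENCODE was used. Capitals mark a CArG box, the SRF site, and 2 copies of TGACG, the core of the cAMP response element (CRE), which CREB and its relatives bind, read on either strand.
Egr2: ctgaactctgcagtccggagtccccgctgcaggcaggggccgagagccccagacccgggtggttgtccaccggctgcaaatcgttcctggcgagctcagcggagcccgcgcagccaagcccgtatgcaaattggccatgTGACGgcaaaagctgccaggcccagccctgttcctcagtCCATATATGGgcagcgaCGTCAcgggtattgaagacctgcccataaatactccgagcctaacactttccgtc
The CArG box starts 72 bases before the start, and a CArG box lies in 1.47% of 32851 promoter windows of that length. The CRE core lies in 17.8% of windows once or more and in 3.90% at least 2 times, the count found in Egr2. A match is a stretch of letters and was not measured as a bound site.

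**Figure D2:**
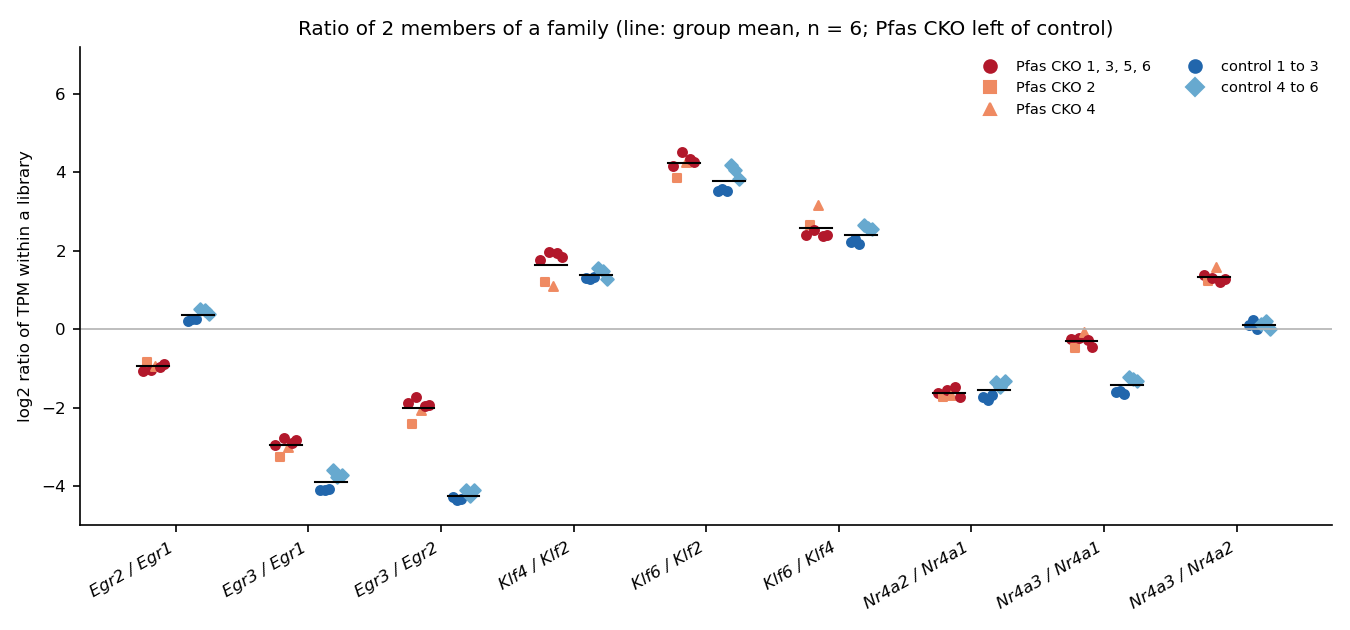
Log2 ratio of the TPM of 2 members of a family for the 9 pairs, Pfas CKO left and control right, 1 point per library and a bar at the mean. The 3 EGR ratios and both ratios with Nr4a3 on top show no overlap, whereas the ratio of Nr4a2 to Nr4a1 overlaps.

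Among the KLF genes, Klf6 rose by a small step and neither Klf2 nor Klf4 passed the test. Klf6, an injury-induced factor that is active in wound repair and in activated hepatic stellate cells, held 702, 869 and 922 CPM in Pfas CKO and 601, 645 and 714 CPM in control. All Pfas CKO libraries but Pfas CKO 2 lay above the highest control. That gave a log2 fold change of 0.39 ± 0.0673 (SE, adjusted p = 9.45e-05, edgeR), or 1.31-fold. The rise did not pass when the near-identical libraries were summed (log2 fold change 0.36, adjusted p = 0.0779, edgeR, with 18.3% of all genes rising) or on log2(TPM + 1) values (log2 fold change 0.10, adjusted p = 0.186, limma).

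Klf4, a factor of macrophage polarisation, smooth muscle phenotype and pluripotency, held 73.2, 113 and 121 CPM in Pfas CKO and 80.1, 87.1 and 95.7 CPM in control. Its Pfas CKO libraries split, since Pfas CKO 2 (80.1 CPM) and Pfas CKO 4 (73.2 CPM) lay at the bottom of the control range or below it and the other 4 (113 to 121 CPM) above it. Over all libraries the log2 fold change was 0.24 ± 0.114 (SE, adjusted p = 0.0776, edgeR). Without Pfas CKO 2 and 4 it was 0.40 (adjusted p = 4.71e-05, edgeR), in a fit in which 33.4% of all genes rose. It was 0.29 without Pfas CKO 2 alone (adjusted p = 0.0276, edgeR) and 0.31 without Pfas CKO 4 alone (adjusted p = 0.00983, edgeR). With TMM scaling the call thus hung on these 2 libraries, which also held the most remaining Pfas message. A link between Klf4 and remaining Pfas was not tested. With scaling to library totals alone the log2 fold change was 0.0029 (adjusted p = 0.983, edgeR). On log2(TPM + 1) values Klf4 gave -0.072 (adjusted p = 0.612, limma).

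Klf2, a flow-responsive factor of endothelium that also keeps T cells and monocytes quiescent, held 17.1, 19.3 and 20.9 CPM in Pfas CKO and 16.4, 20.7 and 22.5 CPM in control, with overlapping groups. Its log2 fold change of -0.06 ± 0.0880 did not pass (SE, adjusted p = 0.535, edgeR). The controls split, with a mean of 17.8 CPM in control 4 to 6 and 22.3 CPM in control 1 to 3. Against control 4 to 6 alone the value was 0.10 and did not pass (adjusted p = 0.305, edgeR). Against control 1 to 3 alone it was -0.22 and passed (adjusted p = 0.0231, edgeR), as 33.3% of all genes fell there. Klf2 also passed as lower with scaling to library totals (log2 fold change -0.30, adjusted p = 0.00865, edgeR), where 53.0% of all genes fell.

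Klf6 supplied most of the summed KLF level per length in both groups, with 81.9 ± 2.12% of 486 ± 50.4 TPM in Pfas CKO and 79.3 ± 2.54% of 465 ± 10.8 TPM in control. Klf4 made up 13.7 ± 2.25% in Pfas CKO and 14.9 ± 1.62% in control (SD, n = 6 each). Within the family, the log2 ratio of Klf6 to Klf2 was 4.24 in Pfas CKO and 3.79 in control, a difference of 0.45 (two-sided exact permutation test, p = 0.0195, adjusted p = 0.0292). This difference was 0.20 without control 1 to 3, where it did not pass (adjusted p = 0.276 by the same exact test). The other ratios, Klf4 to Klf2 and Klf6 to Klf4, differed by 0.27 and 0.18 and did not pass (adjusted p = 0.170 and 0.307 by the exact test). Klf4 to Klf2 passed without Pfas CKO 4 (0.38, adjusted p = 0.0445 by the exact test), and Klf6 to Klf4 passed without control 4 to 6 (0.36, adjusted p = 0.0306 by the exact test).

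All 3 NR4A genes rose, and Nr4a3 rose most. Nr4a1, also called Nur77, is induced by cAMP, calcium and inflammatory signals, and it restrains inflammatory macrophages in mice. It held 108, 113 and 126 CPM in Pfas CKO and 41.5, 45.5 and 50.3 CPM in control, so the lowest Pfas CKO library was above the highest control by more than the whole control range. Its log2 fold change was 1.32 ± 0.0610 (SE, adjusted p = 4.89e-11, edgeR), or 2.50-fold. Control 4 to 6, with a mean of 42.4 CPM, lay below control 1 to 3, with 49.2 CPM.

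Nr4a2, also called Nurr1 and needed for dopamine neurons, held 45.9, 48.8 and 52.3 CPM in Pfas CKO and 18.8, 20.1 and 22.1 CPM in control. Its groups were tight and far apart. They gave a log2 fold change of 1.26 ± 0.0565 (SE, adjusted p = 3.68e-11, edgeR), or 2.39-fold.

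Nr4a3, also called NOR1 and induced in vascular smooth muscle and immune cells, held 185, 204 and 264 CPM in Pfas CKO and 34.1, 37.1 and 40.6 CPM in control. Pfas CKO 4 was the highest, and the lowest Pfas CKO library, Pfas CKO 2, was still above every control. The log2 fold change was 2.47 ± 0.0828 (SE, adjusted p = 1.23e-12, edgeR), or 5.56-fold.

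The NR4A sum was 196 ± 15.6 TPM in Pfas CKO and 76.2 ± 4.28 TPM in control (SD, n = 6 each). The larger rise of Nr4a3 changed the makeup of the sum. Nr4a3 made up 38.2 ± 2.31% of it in Pfas CKO and 21.7 ± 1.76% in control, while Nr4a1 made up 46.7 ± 2.12% in Pfas CKO and 58.4 ± 3.21% in control. The log2 ratio of Nr4a3 to Nr4a1 was -0.29 ± 0.149 in Pfas CKO and -1.43 ± 0.193 in control, and that of Nr4a3 to Nr4a2 was 1.34 ± 0.138 in Pfas CKO and 0.12 ± 0.0948 in control. Both differences, 1.14 and 1.22, gave p = 0.00216 in the two-sided exact permutation test (adjusted p = 0.0039 over the 9 pairs). The log2 ratio of Nr4a2 to Nr4a1 was -1.63 ± 0.0979 in Pfas CKO and -1.55 ± 0.201 in control, and its difference of -0.08 did not pass (adjusted p = 0.400 by the exact test). Without control 1 to 3 that difference was -0.25 and passed (adjusted p = 0.0357 by the exact test).

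The promoters of the 3 NR4A genes are shown together because the genes rose together and because each holds several copies of the CRE core, through which cAMP and CREB act. Capitals mark TGACG on either strand. The windows end at the RefSeq starts on GRCm38.p6, or, for Nr4a3, where the first annotated exon begins: Nr4a1 at chr15:101266596-101266845, plus strand, Nr4a2 at chr2:57124004-57124253, minus strand, and Nr4a3 at chr4:48045055-48045152, plus strand.
Nr4a1: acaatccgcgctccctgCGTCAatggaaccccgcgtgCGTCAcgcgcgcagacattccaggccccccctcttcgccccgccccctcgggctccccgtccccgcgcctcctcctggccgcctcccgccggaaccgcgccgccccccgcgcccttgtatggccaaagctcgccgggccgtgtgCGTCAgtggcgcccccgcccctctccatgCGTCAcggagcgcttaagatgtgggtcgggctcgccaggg
Nr4a2: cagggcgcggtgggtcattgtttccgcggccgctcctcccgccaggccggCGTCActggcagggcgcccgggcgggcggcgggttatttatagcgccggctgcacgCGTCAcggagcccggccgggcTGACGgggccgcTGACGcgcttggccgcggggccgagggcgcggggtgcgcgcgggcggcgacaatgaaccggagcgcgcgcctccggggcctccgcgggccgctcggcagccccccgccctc
Nr4a3: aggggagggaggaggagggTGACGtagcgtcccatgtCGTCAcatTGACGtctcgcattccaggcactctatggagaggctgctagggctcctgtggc
Each of the 3 windows of 250 bases held 4 CRE cores. For Nr4a3, 3 lie in the stretch printed, and the last lies past the start of its annotated exon. At least 4 were held by 45 of 32851 windows (0.137%). That cutoff is the count the 3 genes held, and the windows were not matched for base composition. The full element TGACGTCA, present in 1.55% of windows, was in none of the 3. The NBRE AAAGGTCA, which NR4A monomers bind, was in 1.34% of windows and in none of the 8 windows of the members. The RefSeq start used differs for all 3 from that of the longest coding transcript in GENCODE, by 12577 bases for Nr4a1, 8965 bases for Nr4a2 and -3809 bases for Nr4a3 in chromosome coordinates (RefSeq minus GENCODE), so that each window belongs to the RefSeq start alone.

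Ier3, also called IEX-1, is no transcription factor but a small protein that is induced by NF-kB, p53 and stress and that modulates apoptosis and ERK signalling. It held 1070.4, 1086 and 1485 CPM in Pfas CKO and 183, 202 and 212 CPM in control, the widest gap among the 10. Pfas CKO 2 and 4, at 1303 and 1485 CPM, were above the other 4, which lay between 1070.4 and 1089 CPM. Pfas CKO 2 and 4 also held the most remaining Pfas message, and a link between Ier3 and remaining Pfas was not tested. Its log2 fold change was 2.57 ± 0.0853 (SE, adjusted p = 1.13e-12, edgeR), or 5.93-fold. Control 4 to 6 were slightly above control 1 to 3 (log2 fold change 0.13, adjusted p = 0.00284, edgeR).

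The Ier3 promoter is shown because the gene had the largest fold change of the 10 and because an NF-kB site can be read in it, marked in capitals. The 221 bases end where the first annotated exon begins, on GRCm38.p6 at chr17:35821463-35821683, plus strand.
Ier3: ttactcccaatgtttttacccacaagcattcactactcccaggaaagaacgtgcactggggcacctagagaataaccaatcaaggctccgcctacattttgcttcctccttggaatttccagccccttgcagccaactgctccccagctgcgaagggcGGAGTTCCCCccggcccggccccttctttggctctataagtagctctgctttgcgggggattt
The site starts 92 bases before the RefSeq start, and 3.90% of all windows held a match to this motif, while none of the other 7 windows of the members did. Of the remaining members with a window, Klf2 and Klf4 held 1 CRE core each and Klf6 held none. The other motifs searched were the AP-1 site TGANTCA (6.75% of windows), the EGR site GCGTGGGCG (0.536%) and TATAAA on the gene's strand (7.59%), and none was found in the 8 windows. Both strands were read for all motifs but TATAAA, the CArG box and NF-kB site were read with their usual alternative letters, and overlapping matches were kept.

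**Figure D3:**
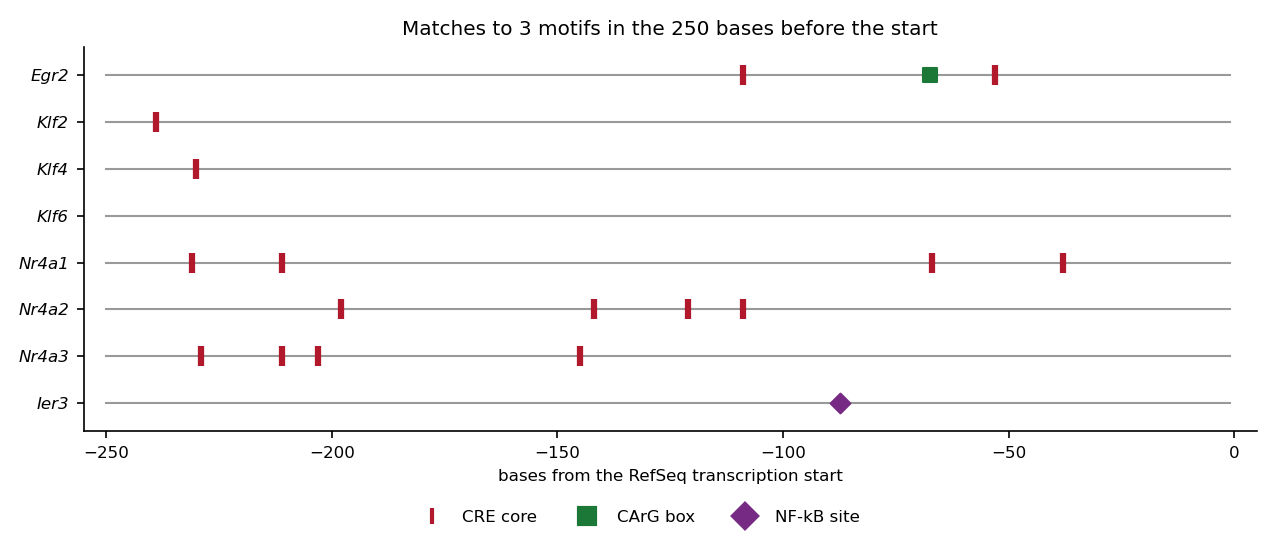
Position of each motif match in the 250 bases before the RefSeq start of 8 members, with distance from the start in bases on the x axis and 1 line per gene. The 3 Nr4a genes carry 4 CRE cores each, Egr2 carries the CArG box and Ier3 the NF-kB site.

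**Figure D4:**
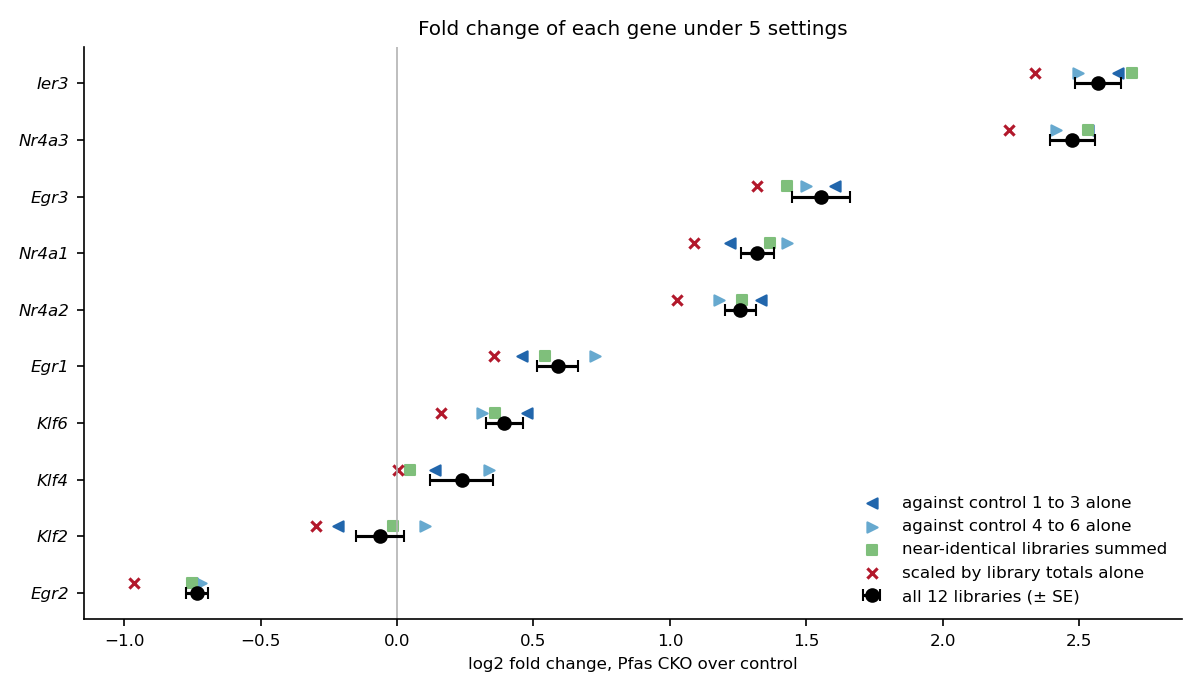
Log2 fold change, Pfas CKO over control, of the 10 genes with its standard error over all 12 libraries, against each control set alone, with near-identical libraries summed, and with scaling to library totals. Ier3 and Nr4a3 lie above 2 in all 5 versions drawn and Egr2 lies below 0, while Klf2 lies on both sides of 0.

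Between the control sets, which have the same genotype, 6 of the 10 genes also differed, where 45.5% of all genes did by the same edgeR test, 23.5% higher and 22.0% lower in control 4 to 6. Egr1 (log2 fold change of control 4 to 6 over control 1 to 3, -0.29), Nr4a1 (-0.23), Klf2 (-0.34) and Klf4 (-0.22) were lower, and Klf6 (0.15) and Ier3 (0.13) were higher. For Klf2 this step was larger than the difference between genotypes, and for Klf4 it was nearly as large. For each of the other 8 it was smaller.

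The partners of these factors were followed in lists of relatives, inputs and targets. These lists too were chosen with earlier results of these data known, so their counts are a description and not a test. Each count stands beside 33.4% of all genes rising and 35.2% falling by the same edgeR test. Of the EGR relatives and NAB corepressors, all 3 tested rose (median log2 fold change 0.40, against -0.02 over all genes). Nab1 and Nab2, which bind EGR1, EGR2 and EGR3 and restrain them, were among these: Nab1 held 136 ± 9.82 CPM in Pfas CKO and 86.6 ± 9.15 CPM in control, and Nab2 held 38.8 ± 5.62 CPM in Pfas CKO and 29.4 ± 2.20 CPM in control (SD, n = 6 each). Both RXR genes tested fell. Rxra, a nuclear receptor with which NR4A1 and NR4A2 can pair, was at 51.1 ± 6.01 CPM in Pfas CKO, against 111 ± 14.3 CPM in control (log2 fold change -1.12 ± 0.0934, SE, adjusted p = 4.91e-08, edgeR). The Nr4a genes and Rxra therefore moved in opposite directions.

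The other KLF genes went both ways, with 6 rising, 4 falling and 1 not passing of 11 tested (median 0.36). Over all genes, 33.4% rose and 35.2% fell. Klf9, a glucocorticoid-induced factor, was at 136 ± 33.2 CPM in Pfas CKO, against 53.8 ± 7.78 CPM in control (log2 fold change 1.34), and Klf5 (0.87) and Klf12 (0.79) followed. Klf8 (-0.74) and Klf13 (-0.35) had the largest falls among those with a mean of at least 2 CPM, below which Klf15 fell by 0.53 on the same scale. Of the other IER genes, Ier5 (0.48) and Ier2 (0.26) rose and the other 2 did not pass.

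Of the 25 inputs, 13 rose, 7 fell and 5 did not pass (median 0.34), against 33.4% rising and 35.2% falling over all genes. Nfkb1, which encodes the p105 and p50 proteins of NF-kB, was at 1066 ± 41.8 CPM in Pfas CKO, against 313 ± 7.30 CPM in control (log2 fold change 1.77 ± 0.0420, SE, adjusted p = 3.86e-14, edgeR). Rps6ka5, the kinase MSK1 that phosphorylates CREB and histone H3 at immediate early genes, rose by a log2 fold change of 1.22, and Crem, of the CREB family, by 0.84. Mapk14, which encodes the p38 alpha kinase, and Rps6ka1, which encodes the kinase RSK1, fell, with log2 fold changes of -0.80 and -0.68. These are message levels and say nothing of phosphorylation.

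Of 30 other immediate early genes, 24 rose, 4 fell and Jun and Sgk1 did not pass (median 0.70). The shares over all genes were 33.4% rising and 35.2% falling. Dusp2, a phosphatase that switches off ERK and p38, had the largest rise, with 38.2 ± 5.61 CPM in Pfas CKO and 4.50 ± 0.650 CPM in control (log2 fold change 3.08). Nfkbia, the NF-kB inhibitor, was at 1001 ± 89.8 CPM in Pfas CKO, against 213 ± 13.4 CPM in control (2.23), and Gem, a small GTPase, rose by 1.72. Zfp36l2, which speeds decay of AU-rich messages, and Ccn1, a matricellular target of SRF and YAP, fell, with log2 fold changes of -1.27 and -0.80. Ccn1 was spread widely in Pfas CKO, at 201 ± 60.9 CPM, against 349 ± 11.4 CPM in control.

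Genes reported as targets were counted as a description, since other factors act on them too. Of 12 reported EGR1 targets, 8 rose, 2 fell and 2 did not pass (median 0.32), where 33.4% of all genes rose and 35.2% fell. Tnf, the inflammatory cytokine, was at 2980 ± 298 CPM in Pfas CKO, against 37.9 ± 2.60 CPM in control, 78.7-fold higher. Ptges, the inducible prostaglandin E synthase, was at 536 ± 62.0 CPM in Pfas CKO, against 49.1 ± 1.35 CPM in control. Icam1, an adhesion receptor, was at 1068 ± 59.9 CPM in Pfas CKO, against 372 ± 11.7 CPM in control. Plau (log2 fold change -0.50) and Pdgfa (-0.48) fell. Of 7 tested KLF2 or KLF4 targets, 5 rose and 2 fell (median 0.89), with rises of Cdkn1a (1.05), Pcdh12 (1.03) and Mcl1 (0.99). Thbd, the thrombomodulin gene, often used as a readout of KLF2 in endothelium, fell by a small margin (log2 fold change -0.46, adjusted p = 0.0484, edgeR). Its spread was wide in Pfas CKO, at 253 ± 105 CPM, against 347 ± 25.6 CPM in control. Nos3, of the same list, rose (log2 fold change 0.64, adjusted p = 1.79e-05, edgeR).

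**Figure D5:**
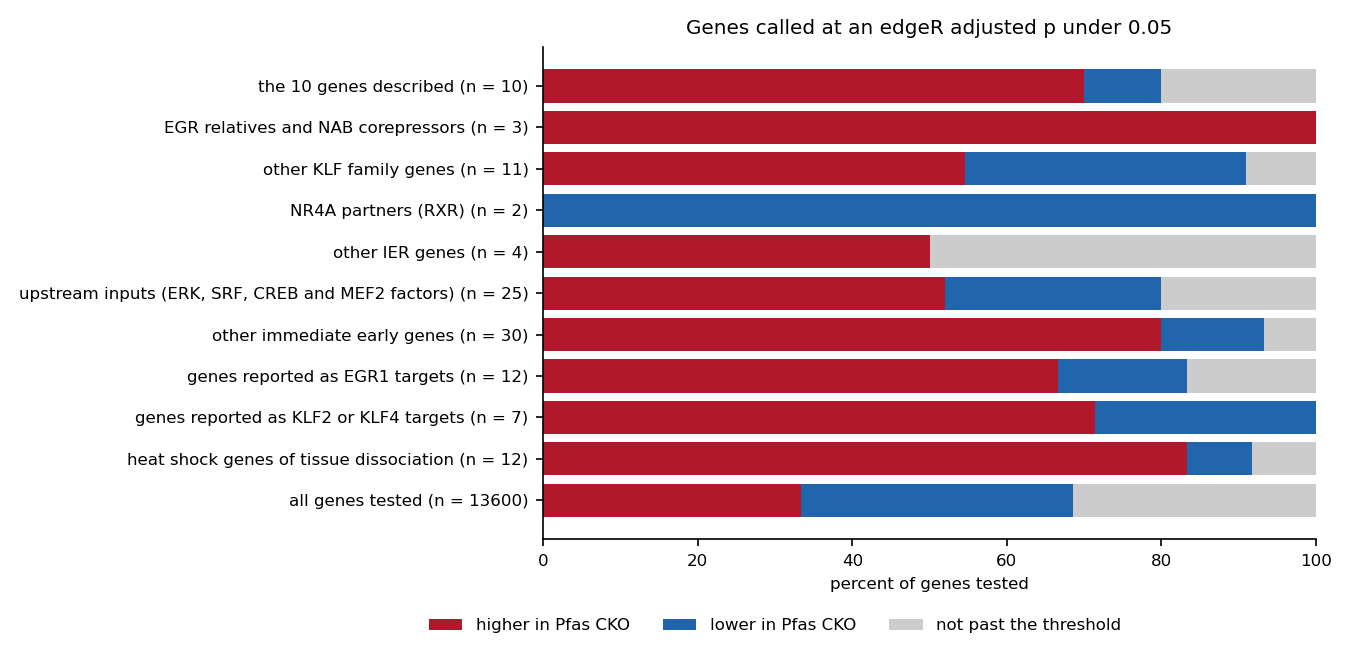
Share of the tested genes of each list that rose or fell in Pfas CKO at an adjusted p under 0.05 (edgeR), in percent, with all 13600 genes below. Of the longer lists, other immediate early genes (24 of 30) and heat shock genes (10 of 12) hold the largest shares of rises, and both RXR genes fell.

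Heat shock genes rise together with immediate early genes when tissue is digested. Here 10 of 12 rose, 1 fell and 1 did not pass (median 0.48), where 33.4% of all genes rose and 35.2% fell. Hspa1a was at 233 ± 13.7 CPM in Pfas CKO, against 88.5 ± 5.66 CPM in control. Its near-identical copy Hspa1b, with which it may share reads, was at 203 ± 15.2 CPM in Pfas CKO, against 82.5 ± 4.47 CPM in control. Hspe1 (log2 fold change -0.22) fell. Isolation times were not in the sources used here, and the part of cell isolation in the rises of the immediate early genes was not tested. Macrophages, endothelium and blood cells also express these genes. The marker counts that follow stand beside the same shares over all genes, 33.4% and 35.2%. Of 12 macrophage markers 6 rose and 3 fell. Of 8 endothelial markers 6 rose and 2 fell, with sums of 748 to 966 CPM in Pfas CKO and 710 to 754 CPM in control. Of 6 pericyte and smooth muscle markers 4 rose, with sums of 244 to 318 CPM in Pfas CKO and 208 to 235 CPM in control. All 6 erythrocyte and platelet markers rose, with sums of 420 to 535 CPM in Pfas CKO and 110 to 137 CPM in control. Their median log2 fold change was 3.83, the largest of the marker lists. All 7 tested cardiomyocyte markers rose too, with sums of 27.1 to 35.8 CPM in Pfas CKO and 10.9 to 13.8 CPM in control. Neutrophil markers summed to 124 to 208 CPM in Pfas CKO and 226 to 251 CPM in control, with 2 rising and 2 falling of 5 tested and with Ly6g and Retnlg at 0 in some libraries. Lymphocyte markers were near 0, with sums of 2.92 to 5.0 CPM in Pfas CKO and 2.36 to 3.02 CPM in control, with Cd3e, Cd3d and Nkg7 at 0 in some libraries. The part of these cell types in the results was not tested.

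For the gene with the smallest p in each family, the 3 genes whose values ran most like it were sought among 8668 genes whose mean reached 10 CPM. Likeness was the mean absolute difference between log2 CPM values over the 12 libraries, each gene centred on its own mean, so that genes with a like group difference come first. Nearest to Nr4a3 were Pnrc1 (0.0635), Ier3 (0.0875) and Clec4e (0.0884), and nearest to Ier3 were Nr4a3 itself, Plagl2 (0.0947) and Samsn1 (0.101). Egr2 ran closest to Cblb (0.0458), Nipsnap2 (0.0463) and C7 (0.0474), all of them lower in Pfas CKO. Klf6 ran closest to Dcp2 (0.0325), Wdr37 (0.0331) and Stam2 (0.0334).

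Features of gene structure were taken from GENCODE M21 on GRCm38. Their median span was 6063 bases and their median number of exons 3.5, against 24709 bases and 9 exons over 13239 tested genes that could be matched. The 3 Nr4a genes stand apart from the rest with 8 exons each and spans of 20527 bases (Nr4a1), 17174 bases (Nr4a2) and 41295 bases (Nr4a3). Ier3 is the most compact, with 2 exons in 1240 bases on chromosome 17 (35821684 to 35822923, plus strand), and Nr4a3 the longest, with 8 exons between 48045153 and 48086447 on the plus strand of chromosome 4, the chromosome that also holds Klf4 (55527143 to 55532466, minus strand). Egr2 lies at 67535475 to 67542188 on chromosome 10, Egr3 at 70077203 to 70082614 on chromosome 14, Klf6 at 5861482 to 5870394 on chromosome 13 and Nr4a1 at 101254269 to 101274795 on chromosome 15, all on the plus strand. Nr4a2 lies at 57106830 to 57124003 on the minus strand of chromosome 2. No exon of a member overlapped an exon of another gene. All 10 have the pentamer ATTTA, the core of AU-rich elements that mark short-lived messages, in the 3' UTR, against 65.2% of the matched genes, and the median count was 3 against 1. The longer TATTTAT was in the 3' UTR of 5 of the 10, with 4 copies in Ier3, against 27.5% of the matched genes. Longer 3' UTRs hold more such motifs by length alone, and the medians were 1208 bases in the members and 955 bases in the matched genes.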

How the data were processed

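Poly(A)-selected RNA of cardiac fibroblasts was sequenced in 6 Pfas CKO and 6 control libraries. The authors deposited 1 table of estimated counts, TPM and FPKM per gene and library; the FPKM values deposited by the authors served only in place of TPM as an alternative for the ratios within families, where no call changed. Per the submitters' processing notes, the build was GRCm38 for all libraries, Bowtie2, RSEM and DESeq2 were named for 9 libraries without a version or role, and no tool was named for control 1 to 3. The deposited estimated counts had 60.85 to 61.54% whole values (within 0.005) in control 1 to 3 against 17.11 to 26.34% in the others, so the authors' counting may have differed between them. Strand setting, annotation and filters are not stated in the labels. Of 18771 genes, 1067 with a blank control value were left out; no member was.

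Rounded counts went through the edgeR quasi-likelihood test (edgeR 4.0.16, R 4.3.3, TMM scaling, filterByExpr, Benjamini-Hochberg over 13600 genes, threshold 0.05), with group as the only factor. CPM used TMM library sizes. The deposited TPM, scaled by the authors per library, gave levels between genes and ratios within families, which were tested by exact permutation over 924 splits. Alternatives used DESeq2 1.42.0, limma 3.58.1 (log2 of TPM plus 1 or 0.1), other scaling and filters, left-out libraries and sets, and near-identical libraries summed. Promoters came from RefSeq (GRCm38.p6), with windows of 8 members used; that of Egr1 is not reported here. The scripts were tested on simulated data. The members and lists were chosen with earlier results of these data known. Named from each list were the 3 passing genes with the largest rise and the 2 with the largest fall, at a mean of at least 2 CPM; a few others were named after their values were seen.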

Additional observations from a re-analysis of the deposited data

Results flagged for a closer look

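An outlying library was sought in 132 groups of 6 libraries, 1 per gene or ratio and genotype. In 11 groups the gap of a library to its nearest neighbour exceeded 0.625 of the group's range. About 1 in 20 groups of independent, normally spread values would pass this cutoff. The libraries form near-identical sets and some genes were picked as alike, so the 11 groups cannot be set against that rate. Most of the outlying libraries were Pfas CKO 4 or Pfas CKO 2, which also differed from the other Pfas CKO libraries in remaining Pfas. Pfas CKO 4 was the high one for Nr4a3, at 263.7 CPM against 185 to 209 CPM in the other Pfas CKO libraries. It was also high for Nfkb1 (1147 CPM, others 1038 to 1077), Dusp2 (49.1 CPM, others 33.8 to 38.7), Plagl2 (310.9 CPM, others 246 to 265) and Samsn1 (59.5 CPM, others 41.0 to 45.4). The log2 ratio of Klf6 to Klf4 was 3.17 in Pfas CKO 4 and 2.39 to 2.66 in the others. Pfas CKO 4 was the low one for Hspa1b, at 173.9 CPM against 199 to 215 CPM. Pfas CKO 2 was the low one for Tnf (2406 CPM, others 2942 to 3219), Wdr37 (46.4 CPM, others 55.4 to 60.6) and Stam2 (171.2 CPM, others 192 to 203). Among the controls, control 4 was low for Hspa1a, at 77.5 CPM against 88.0 to 93.1 CPM. Without both Pfas CKO 2 and 4, Nr4a3, Nfkb1, Dusp2 and Tnf kept their direction and passed the test (edgeR). What sets these libraries apart was not tested.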

How the results depend on the processing

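Egr1, Egr2, Egr3, Nr4a1, Nr4a2, Nr4a3 and Ier3 kept their direction and passed in all 25 alternatives, Klf6 passed in 22, and Klf2 and Klf4 kept direction and side of the threshold in 20. Klf2 was 0.10 without control 1 to 3, and Klf4 -0.072 with log2(TPM + 1) and -0.073 with log2(TPM + 0.1). Genes that rose numbered 4545, but 2775 with library totals, 2279 with log2(TPM + 1), 2271 with log2(TPM + 0.1) and 2786 with near-identical libraries summed. Genes that fell numbered 4785, but 7202, 7280, 7263 and 2878 in the same order. These scalings moved the median log2 fold change of all genes by -0.23 (totals), -0.25 and -0.28 (TPM). Members that fell numbered 2 (Egr2 and Klf2) with library totals, with either TPM offset and without control 4 to 6. Genes of the lists that fell numbered 22, but 35 with totals, 37 with either TPM offset and 10 with libraries summed. Of 1172 alternative values of 47 other named genes, 1119 kept their call, 49 no longer passed and 4 reversed: Wt1 (-0.012 and -0.017) and Ier2 (-0.021 and -0.021) with the TPM offsets of 1 and 0.1. Without 1 library at a time, the ratio of Klf6 to Klf2 differed by 0.39 to 0.53, no longer passing in 7 of 12 cases, and by 0.20 without control 1 to 3. That of Klf4 to Klf2 differed by 0.20 to 0.38, passing without Pfas CKO 4 (0.38, adjusted p = 0.0445, exact test), and by 0.52 without Pfas CKO 2 and 4 (adjusted p = 0.0143, exact test). That of Nr4a2 to Nr4a1 differed by -0.25 without control 1 to 3, where it passed (adjusted p = 0.0357, exact test), and 0.10 without control 4 to 6, and that of Klf6 to Klf4 by -0.0031 without control 1 to 3 and 0.36 without control 4 to 6, where it passed (adjusted p = 0.0306, exact test). The cause was not tested. The replicate numbers of the 2 groups are shared but did not pair the libraries (correlations of deviations -0.096 to 0.198); with the replicate block, 4529 genes rose and 4755 fell, and 7 members rose and 1 fell. Counts of at least 189 per member and library put little limit on precision; the libraries' sets limit it more.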
